A study of Arabidopsis thaliana with 16 samples.

Results

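The 43 probe sets described here measure transcripts that were higher in 60-day-old than in 30-day-old rosettes of Arabidopsis thaliana on low nitrate, in the wild type and in 2 autophagy mutants. They were chosen by a rise of at least 2 on the log2(signal + 32) scale, taken as the difference of the group means and required separately in Col-0, atg5 and atg9. Of 22746 probe sets, 47 met this limit, 4 of them were set aside by locus (AT4G16260, PDF1.2, PDF1.2b and HIS1-3), and the other 43 form the set. The rise with age is therefore how the members were found. It is given as a description, without a test.

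Leaf ageing is an ordered programme in which chloroplasts and proteins are taken apart and their nitrogen is sent to younger organs. Autophagy, which carries cytoplasm to the vacuole for breakdown, contributes to that recycling, and autophagy mutants are known for early leaf senescence, most of all when nitrogen is short. Transcripts that climb as rosettes age include transporters, receptors, kinases and many proteins of unknown role.

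The data are 16 arrays of whole-rosette RNA, 2 for each of 8 groups. The genotypes were the wild type Col-0, the atg5-3 mutant (SALK_02060) and an atg9 mutant (SALK_130796). All plants grew in short days of 8 h light and 16 h dark, and the 3 genotypes were sampled on low nitrate (2 mM) at 30 and 60 days after sowing, with Col-0 and atg5 also sampled on high nitrate (10 mM). The labels give the high-nitrate rosettes 2 ages, 30 days in the titles and design and 60 days elsewhere, so their age is unsettled and high nitrate is kept as a condition of its own. Each array held a mix of more than 6 plants, 1 array per group from each of 2 cultures grown months apart, and each mutant is a single insertion line. In whole rosettes, a change in the proportion of a cell type and a change in RNA per cell cannot be told apart.

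Median signals of the arrays lay between 154 and 254 after the authors' scaling. Of the low-nitrate arrays that chose the members, 2 stood apart. Culture 1 of Col-0 at 30 days had few dim values, its lower quartile being 89.1 where all other arrays had 26.4 to 38.9. Culture 1 of atg5 at 60 days showed an actin 3′/5′ ratio of 9.05 where no other array exceeded 3.04. Across probe sets the replicates of these 2 groups correlated at r = 0.905 and 0.955, and those of the 6 other groups at 0.971 to 0.979. Without these 2 arrays the rule found 55 probe sets, of which 28 were among the 43. The rosette label was met by its markers: the summed signal of 3 photosynthesis genes was between 39973.4 and 78887.8 on every array, and that of 2 floral organ genes between 4.8 and 53.5. Summed signals of 4 flowering and phase genes were 877.7 to 1105.9 at 30 days and 1104.9 to 2493 at 60 days, and those of 3 root genes were 873.7 to 1383.5 and 345.4 to 759.9. The single genes did not all move with these sums. BGLU23, from which most of the root sum came, changed by -1.07, -1.16 and -1.56 in Col-0, atg5 and atg9. EXPA7 changed by -0.67, -0.68 and -0.96, and EXPA18 by 0.60, 0.23 and -0.30. Of the flowering and phase genes, AGL24 changed by 0.12, -0.23 and -0.15, and GI, AGL19 and AGL42 had positive values in all 3 genotypes. Whether the proportion of any tissue changed, and its part in the age changes, was not tested.

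The 43 probe sets are unevenly annotated. A single gene is given for 12, several genes for 3, and 28 are not listed in the annotation used, so those 31 are called here by their probe set numbers. The 12 named genes lie on all 5 chromosomes, 4 of them on chromosome 1 and 4 on chromosome 2. AT1G67800 and SUFE2 (AT1G67810) are direct neighbours, with 0 protein-coding genes between them, and their levels followed each other at r = 0.84 over the 16 arrays at 0.24 once the mean of each condition was removed, and at -0.25 once the means of all 8 groups were. Over all 903 pairs of members, r across the 16 arrays ran from 0.17 to 0.98 with a median of 0.85. All pairs share the rise by which they were chosen.

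On low nitrate the median age change of the members was 2.58 in Col-0, 2.7 in atg5 and 3.35 in atg9, beside medians over all probe sets of -0.15, -0.01 and 0.03. The limit of 2 was met by 135 probe sets in Col-0 (0.594%), 563 in atg5 (2.48%) and 441 in atg9 (1.94%), fewest in the wild type. The median signal of the members went from 114 to 1173 in Col-0, from 188 to 1466 in atg5 and from 128 to 1332 in atg9. In rank, the median member moved from the 38.9th to the 85.9th percentile of its group in Col-0, from the 51.4th to the 88.7th in atg5 and from the 44.9th to the 87.8th in atg9. At 30 days 13, 2 and 7 members were under the lower quartile in Col-0, atg5 and atg9, and 0 were there at 60 days. The Col-0 group at 30 days holds the array with the lower quartile of 89.1, which raises the quartile its members are set against.

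The size of the rise is set side by side among genotypes as a description. The members were chosen on these same changes, and whether the genotypes differ in them was not tested. The rise was largest in atg9 for 26 members, in atg5 for 10 and in Col-0 for 7. It was smallest in Col-0 for 24, the genotype in which fewest probe sets met the limit. The order of Col-0 and atg5 reversed between cultures. Their median rises were 2.81 and 2.37 in culture 1, and 2.4 and 3.28 in culture 2. For 13 members the 3 genotypes lay within 0.5 of each other, and for 16 they were at least 1 apart. A mean rise of at least 2 by itself favours arrays that do not overlap. The 2 arrays at 30 days lay below the 2 at 60 days for all 43 members in Col-0 and atg9 and for 42 in atg5. The exception was 260140_at, whose signals in atg5 were 116.1 and 59.2 at 30 days and 113.6 and 1557.2 at 60 days. Its atg5 change was -0.02 in culture 1, whose 60-day array had the high actin ratio, and 4.12 in culture 2. In Col-0 the same probe set read 13.1 and 190.7 at 30 days and 2244.5 and 2396.6 at 60 days. Within single cultures, 19 members met the limit of 2 in every genotype and in both cultures. The share of all probe sets was computed neither for this nor for arrays that do not overlap between ages. Nothing is read from either count. Just inside the limit, the smallest of the 3 age changes was 2.01 for 253987_at, 2.00 for 254818_at and 2.00 for 248994_at. Just outside it was 1.99 for 266746_s_at, 1.98 for 258887_at and 1.98 for AT4G38550.

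**Figure D1:**
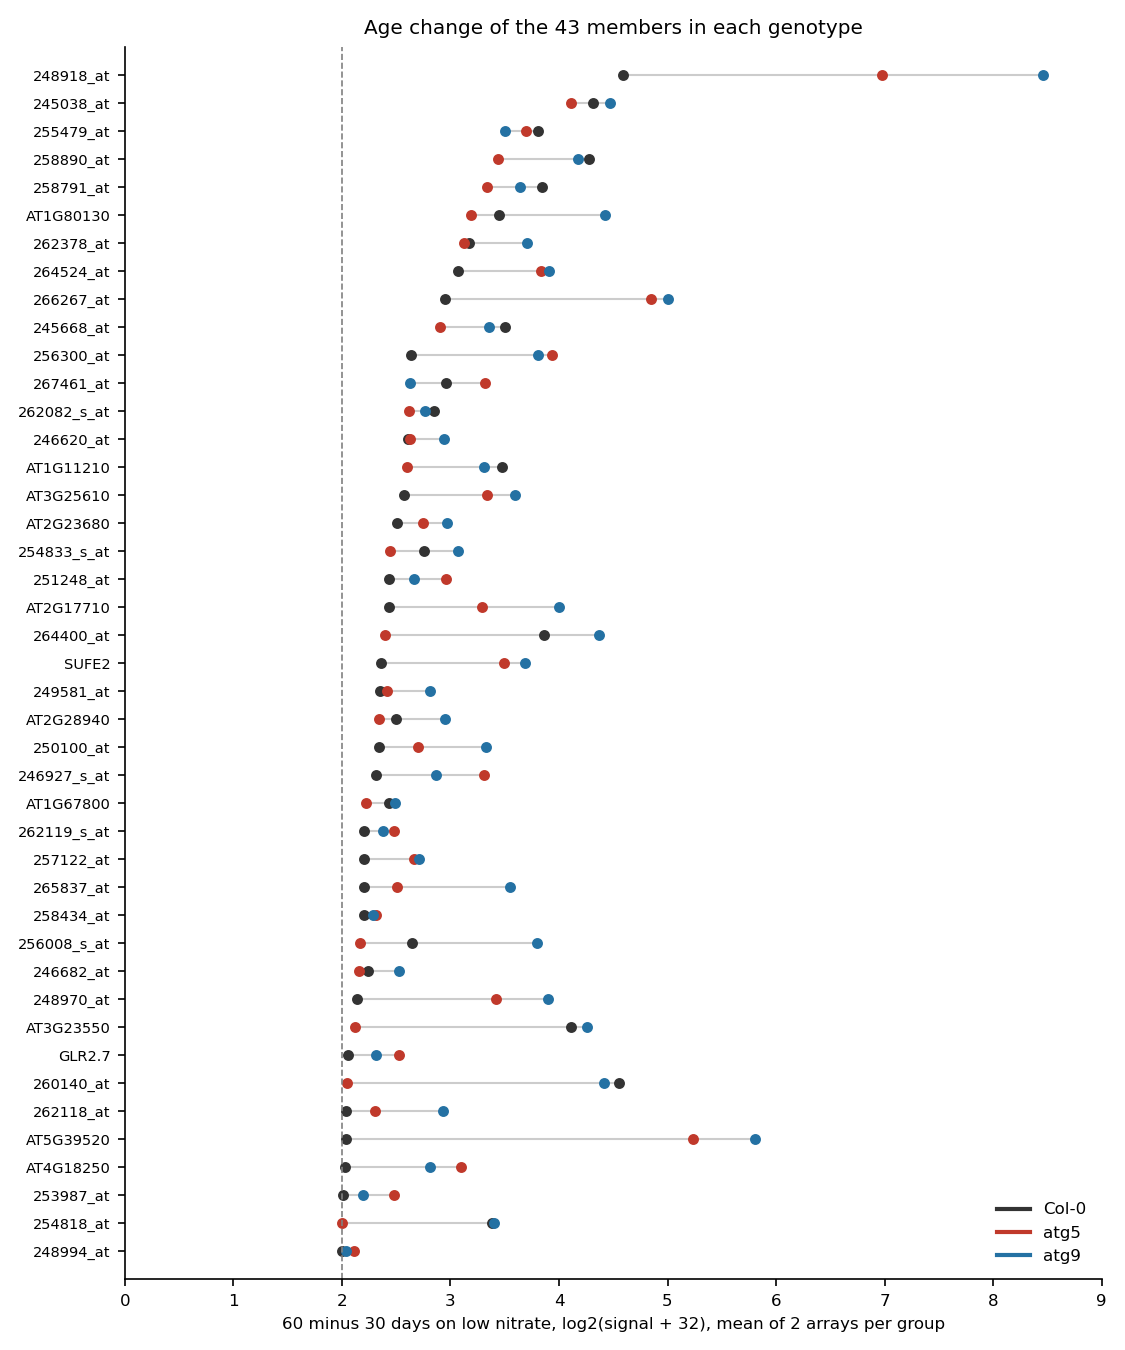
Age change of each of the 43 members on low nitrate, as the 60-day minus the 30-day group mean of log2(signal + 32), for Col-0, atg5 and atg9, with n = 2 arrays per group mean. All points lie at or above the limit of 2 by which they were chosen, and the median is highest in atg9 at 3.35.

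Of the transporters and membrane proteins, AT3G23550 belongs to the MATE family of efflux carriers. In Col-0 it read 41.7 and 9.1 at 30 days and 815.3 and 1037.6 at 60 days, and in atg9 24.2 and 26.6 then 1519.5 and 743.1. In atg5 it read 64 and 51.7 then 375.8 and 342.6. Its age change was thus 4.11 in Col-0 and 4.26 in atg9 against 2.12 in atg5, and on high nitrate it stayed low, at 83.5 and 59.4 in Col-0 and 118.3 and 228.7 in atg5. AT3G25610, a phospholipid flippase of the P4-type ATPases, read 44.1 and 7.8 then 351.4 and 248.8 in Col-0. It read 132.9 and 38.4 then 895.6 and 1253.2 in atg5, and 58.9 and 3.4 then 775.6 and 548.0 in atg9. Both mutants were above every Col-0 array at 60 days. AT2G23680, of the WCOR413 family of cold-acclimation membrane proteins, read 32.8 and 61.0 then 421.6 and 396.6 in Col-0, and its 60-day signals were 688.8 and 943.4 in atg5 and 817.3 and 532.1 in atg9.

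Receptors and kinases form a second group. GLR2.7, a glutamate receptor-like channel, read 56.1 and 134.1 at 30 days and 562.6 and 395.7 at 60 days in Col-0. In atg5 it read 267.3 and 181.9 then 1826.5 and 1105.4, above Col-0 at either age, and its age changes were 2.06, 2.52 and 2.31 in Col-0, atg5 and atg9. AT4G18250, a receptor-like serine/threonine kinase, went from 28.5 and 3.6 to 179.7 and 137.3 in Col-0 and from 34.7 and 1.2 to 291.7 and 466.9 in atg5. Its 30-day signals were close to or below the added 32, which damps its age changes of 2.03, 3.09 and 2.81. AT2G28940, a protein kinase, changed by 2.5, 2.34 and 2.95, with 60-day signals of 421.8 and 264.1 in Col-0 and 396.2 and 459.3 in atg5, which overlap. AT1G67800, which has a copine-type domain and is neither a receptor nor a kinase, changed by 2.43, 2.23 and 2.49.

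SUFE2, a plastid protein of iron-sulfur cluster assembly that activates cysteine desulfurase, went from 87.8 and 44.6 to 360.7 and 586.2 in Col-0. It went from 78.6 and 35 to 788.6 and 1117.5 in atg5 and from 62.2 and 6.7 to 782.1 and 712.4 in atg9. Its 30-day arrays overlap among genotypes and its 60-day arrays in the mutants lie above those of Col-0. Its age changes were 2.36, 3.5 and 3.69.

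AT1G80130 is a protein with tetratricopeptide-like repeats. It read 794.5 and 2651.0 at 30 days and 16451.4 and 15988.5 at 60 days in Col-0, and 510.7 and 879.5 then 13198.8 and 17089.4 in atg9. In atg5 the 60-day arrays read 5425.1 and 15075.7, the lower of them being the array with the high actin ratio. Its age changes were 3.45, 3.19 and 4.42, so that its smallest change was above that of any other named gene. AT1G11210 followed with 3.48, 2.6 and 3.31, from 39.5 and 47.1 to 883.1 and 735.1 in Col-0. AT2G17710 changed by 2.43, 3.29 and 4.0, with 257.6 and 578.8 then 2258.8 and 2214.7 in Col-0 and 176.0 and 211.7 then 3070.8 and 4155.7 in atg9.

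AT5G39520, a protein of a DUF family with no settled role, had the widest gap between genotypes among the named members. In Col-0 it read 134.3 and 65.1 at 30 days and 719.8 and 328.5 at 60 days, an age change of 2.03. In atg5 it read 500.2 and 79.5 then 13802.4 and 6084.2, and in atg9 56.2 and 26 then 4772.2 and 3289.7. The age changes were 5.24 and 5.80, and the mutant arrays at 60 days lay far above those of Col-0.

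**Figure D2:**
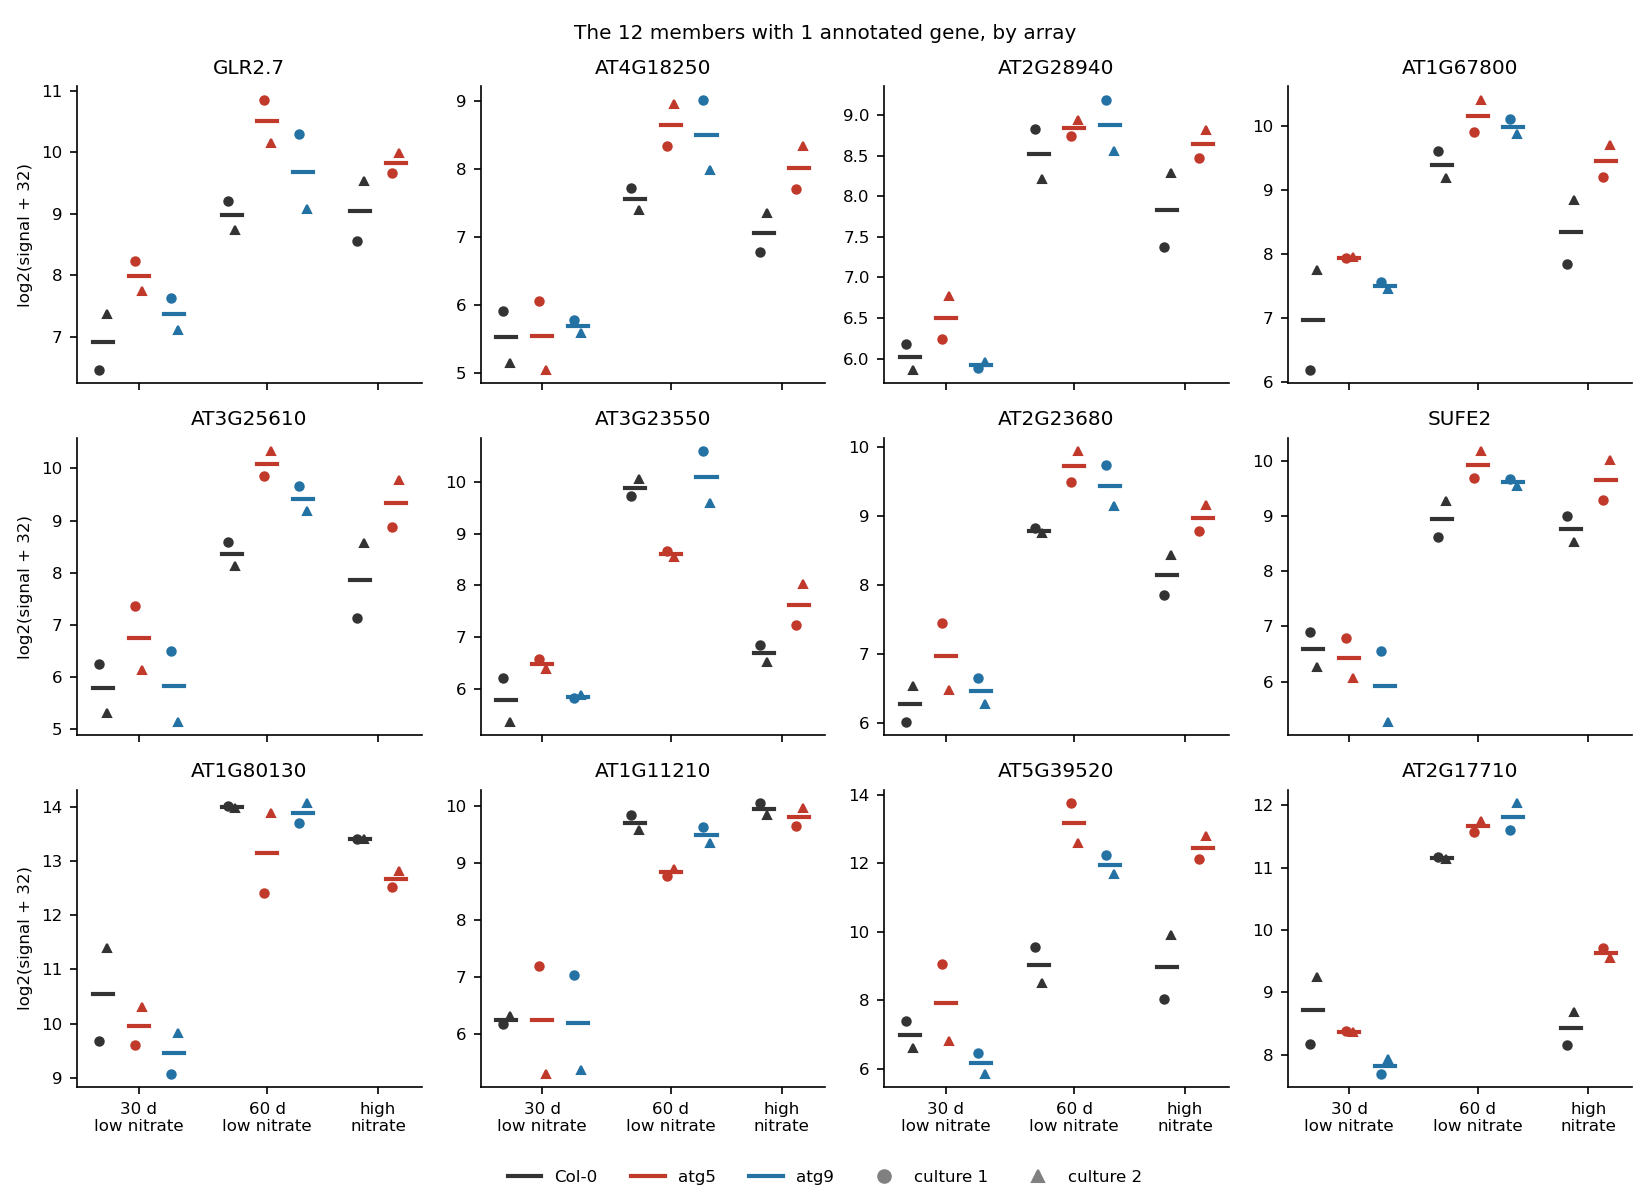
Level on every array, as log2(signal + 32), of the 12 members with a single annotated gene, by genotype and condition, with a circle for culture 1, a triangle for culture 2 and a bar at their mean. Each panel has its own vertical range that does not start at 0. In the AT5G39520 panel the mutants at 60 days stand above every Col-0 array.

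Among members without a single gene, 248918_at had the largest age changes, 4.59 in Col-0, 6.98 in atg5 and 8.46 in atg9. Its arrays read 94.5 and 3.2 then 4534.7 and 535.1 in Col-0, 537.0 and 2.1 then 17047.6 and 17973.9 in atg5, and 13.8 and 1.7 then 13677.8 and 13931.9 in atg9. The 2 cultures of Col-0 differ widely, and the mutants at 60 days do not. The probe sets 245038_at and 255479_at changed by 4.31, 4.11 and 4.47 and by 3.81, 3.70 and 3.50 in Col-0, atg5 and atg9. The first went from 40 and 23.5 to 1365.2 and 1096.3 in Col-0, and the second from 83.0 and 156.2 to 3058.3 and 1337.8.

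The 4 high-nitrate arrays took no part in choosing the members, and they answer whether the same transcripts also differ between atg5 and Col-0 there. Median signals of the members were 526 in Col-0 and 871 in atg5. In limma's fit over all 22746 probe sets, 0 of the 43 members passed an adjusted p of 0.05, where 0.29% of all probe sets did (0.273% higher and 0.0176% lower). At an unadjusted p under 0.05 there were 18 members, all higher in atg5, among 1639 probe sets (7.21%). The median difference, atg5 minus Col-0, was 0.82 for the members and -0.01 for all probe sets, and 35 of the 43 were higher in atg5, beside 48.5% of all. It was 0.89 in culture 1 and 0.72 in culture 2, and 0.51 with 30 or 29 members higher when the culture 1 array of Col-0 or the culture 2 array of atg5 on high nitrate was left out. Both atg5 arrays lay above both Col-0 arrays for 28 members (65.1%), beside 20.3% of all probe sets, and below them for 3, beside 20.2%.

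AT5G39520 read 229.8 and 925.2 in Col-0 on high nitrate and 4450.5 and 7057.3 in atg5. The groups do not overlap, and the difference was 3.49 ± 0.70 (SE, limma, adjusted p = 0.08, n = 2 each). 256300_at read 1603.8 and 1355.6 against 5543.5 and 8561.8, a difference of 2.2 ± 0.44 with the same adjusted p of 0.08 from limma. AT2G17710 read 254.3 and 381.5 against 810.4 and 717.6, and limma gave 1.21 ± 0.27 with an adjusted p of 0.117. With 250100_at, at 1.48 ± 0.32, these had the lowest p-values among the members, and 0 passed the threshold. 248918_at read 76.9 and 1414.3 in Col-0 and 14024.6 and 14513.0 in atg5, with the largest difference, 5.17 ± 1.31 (limma, adjusted p = 0.188). AT3G25610 differed by 1.47 ± 0.61, AT1G67800 by 1.11 ± 0.41, AT4G18250 by 0.96 ± 0.47 and AT3G23550 by 0.95 ± 0.40, with adjusted p-values in limma of 0.508 or more. On the other side of 0 were AT1G80130 at -0.73 ± 0.39 and AT1G11210 at -0.14 ± 0.50.

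The count of 0 on high nitrate depends on which arrays are in the fit, as does the count over all probe sets. The latter is given at the end with the other settings. Nothing is read about the members from the counts that follow. When both of the unusual arrays were dropped, 4 members passed in limma: 256300_at, 250100_at, 249581_at and AT2G17710, which had an adjusted p of 0.0496 for its difference of 1.21. The count was 2 without either array of Col-0 or of atg5 at 30 days, 1 without either array of atg5 at 60 days, and 3 without the Col-0 high-nitrate array of culture 2.

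At 60 days on low nitrate, the mutants can be compared with Col-0 on arrays that also chose the members. The rule asked each genotype for a high 60-day mean but set no direction between genotypes. In atg5, 6 members passed as higher and 1 as lower in limma's fit, 7 of 43, with 4.03% over all probe sets (3.17% higher and 0.862% lower) as background. The members were chosen to be high on these arrays, so nothing is read from their share against that of all probe sets. The only named gene among them was AT5G39520, higher by 4.14 ± 0.70 (limma, adjusted p = 0.00717). The others, singled out after their values were seen, were 246927_s_at at 2.89 ± 0.55, 256300_at at 2.11 ± 0.44, 266267_at at 3.07 ± 0.69, 265837_at at 2.80 ± 0.67 and 248970_at at 1.73 ± 0.42, and 254818_at at -1.08 ± 0.22. For 266267_at the 60-day arrays read 189.3 and 526.8 in Col-0 and 2598.5 and 3288.6 in atg5. For 254818_at they read 4113.1 and 2440.5 in Col-0 and 1799.4 and 1223.6 in atg5. In neither case do the groups overlap.

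These 7 calls rest on few arrays. The count over all probe sets also moved with the arrays in the fit, as given at the end with the other settings. Nothing is read about the members from how their count moved. When both unusual arrays were dropped, 0 of the 43 passed and AT5G39520 kept 3.71 with an adjusted p of 0.111 in limma. Few or no members passed when either Col-0 array at 60 days, or the atg5 array of culture 1, was left out. Without the atg5 array of culture 2 the count stayed near that of the full fit, with fewer members higher and more lower. The median difference of all members was 0.61, beside -0.02 over all probe sets, and fell to 0.34 when culture 2 of Col-0 was left out. With all arrays, 27 of 43 were higher in atg5, beside 47.8% of all probe sets. By at least 1, 14 members were higher and 5 lower, where 5.76% and 2.95% of all probe sets were. Of those 5, all were lower by at least 1 in culture 1, whose atg5 array has the high actin ratio, and 1 in culture 2, AT3G23550. For 260140_at the differences were -3.97 and -0.61 in the 2 cultures, for 264400_at -3.11 and -0.26, and for 258890_at -2.06 and -0.20. Both atg5 arrays lay above both of Col-0 for 22 members, beside 22.2% of all probe sets, and below for 9, beside 25.5%. Among named genes that did not pass, the differences were 1.53 ± 0.47 for GLR2.7, 0.98 ± 0.45 for SUFE2, -0.84 ± 0.39 for AT1G80130, -0.87 ± 0.50 for AT1G11210 and -1.28 ± 0.40 for AT3G23550.

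In atg9 at 60 days 0 members passed, beside 0.237% of all probe sets (0.233% of them higher), and 8 had an unadjusted p under 0.05 in limma, all higher, as did 930 of all probe sets (4.09%) in either direction. The median difference from Col-0 was 0.37, beside -0.02 over all, with 35 of 43 higher, beside 47.1% of all. The 60-day arrays of atg9 also chose the members, so again nothing is read from the members' shares against those of all probe sets. Both atg9 arrays lay above both of Col-0 for 19 members, beside 16.7% of all, and below for 3, beside 17.3%. The difference for AT5G39520 was 2.94 ± 0.70 (limma, adjusted p = 0.188). 1 member passed when either Col-0 high-nitrate array was left out. Set directly against atg5, atg9 gave 0 members past the threshold, beside 0.0044% of all, and 4 at an unadjusted p under 0.05, beside 6.4% of all. The median was -0.13, and 0.06 without the culture 2 array of atg5 or of atg9 at 60 days.

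At 30 days 0 members passed in any of the 3 genotype comparisons, beside 0.0% of all probe sets in each. The 30-day arrays also chose the members, as the means from which the rise was taken. Nothing is therefore read from the members' shares or medians against those of all probe sets. At an unadjusted p under 0.05 in limma there were 7 for atg5 against Col-0, all higher, beside 9.8% of all probe sets. There were 2 higher and 7 lower for atg9 against Col-0, beside 10.2%, and 4 for atg9 against atg5, all lower, beside 1.16%. The median difference was 0.48 for atg5 minus Col-0, at 0.79 in culture 1 and -0.05 in culture 2, and -0.05 for atg9 minus Col-0, at 0.40 and -0.26. These comparisons hold the array of Col-0 with the raised lower quartile, without which the medians were 0.18 and -0.21 and 0 members passed. When instead its replicate of culture 2 was left out, 6 members passed for atg5 and 4 for atg9, beside 23.6% and 24.7% of all probe sets. The median of atg5 was -0.07 without its culture 1 array, and that of atg9 0.27 after quantile normalization, 0.06 without the culture 2 array of Col-0 and 0.07 without its own of culture 2. atg9 was below atg5 for 37 of 43 members, by a median of -0.50 beside -0.04 over all probe sets, and in both cultures for 32. Without the culture 1 array of atg5 the median was -0.10 with 17 members higher, and without the culture 2 array of atg9 it was -0.26 with 15 higher.

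The atg5 differences on high nitrate and at 60 days on low nitrate come from separate arrays. Across the 43 members they correlated at r = 0.87, and across all 22746 probe sets at 0.74, values that describe probe sets and not replicates. All 27 members that were higher in atg5 at 60 days were also higher on high nitrate, 11 of them by at least 1 in both. Of the 16 that were lower at 60 days, 8 were lower and 8 higher on high nitrate. In a contrast of the 2 differences, added after the data were seen, 0 members passed in limma and 4 had an unadjusted p under 0.05, with 0 and 649 over all probe sets.

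**Figure D3:**
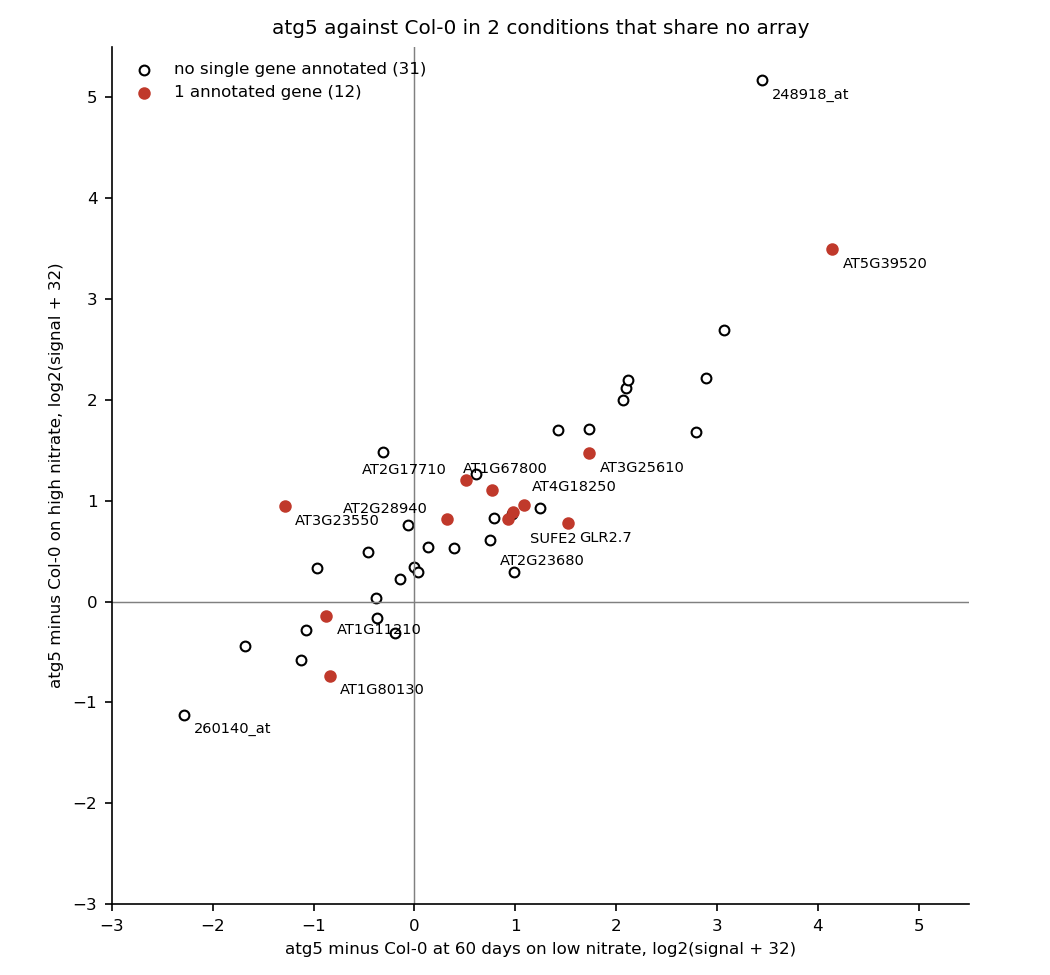
Difference of atg5 from Col-0 for the 43 members, on high nitrate (vertical) against 60 days on low nitrate (horizontal), as log2(signal + 32) group means of 2 arrays each. Most points lie in the upper right, above 0 on both axes, with AT5G39520 at 4.14 and 3.49, while AT3G23550 lies at -1.28 and 0.95.

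The level of the members on high nitrate was placed between the low-nitrate levels of the same genotype, as a description. In Col-0, 34 of 43 lay between their 30-day and 60-day means, 6 above and 3 below, and 34 were nearer to 60 days. In atg5, 38 lay between, 5 above and 0 below, and 38 were nearer to 60 days. The median member stood 78.1% of the way from the 30-day to the 60-day mean in Col-0 and 84.1% in atg5. By culture it stood 59.8% and 95.0% of the way in Col-0 and 68.6% and 90.5% in atg5. The 38 probe sets that fell by at least 2 with age in all genotypes stood 77.4% and 71.4% of the way in Col-0 and atg5. As the age of the high-nitrate plants is unsettled, the parts of age and nitrate in this position cannot be told apart.

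Single members departed from that position. AT2G17710 read 254.3 and 381.5 in Col-0 on high nitrate, below its 30-day mean on low nitrate and -11.9% of the way, and it stood 38.4% of the way in atg5. AT3G23550 stood at 21.9% and 53.8%, and 250100_at at -59.1% and 28.7%. At the other end AT1G11210, with 1030.3 and 886.0 in Col-0 and 772.5 and 969.0 in atg5, stood at 106.8% and 137.5%. The highest in Col-0 was 265837_at at 174.4%, with 2563.4 and 6038.8 against 1172.9 and 1312.1 at 60 days on low nitrate.

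**Figure D4:**
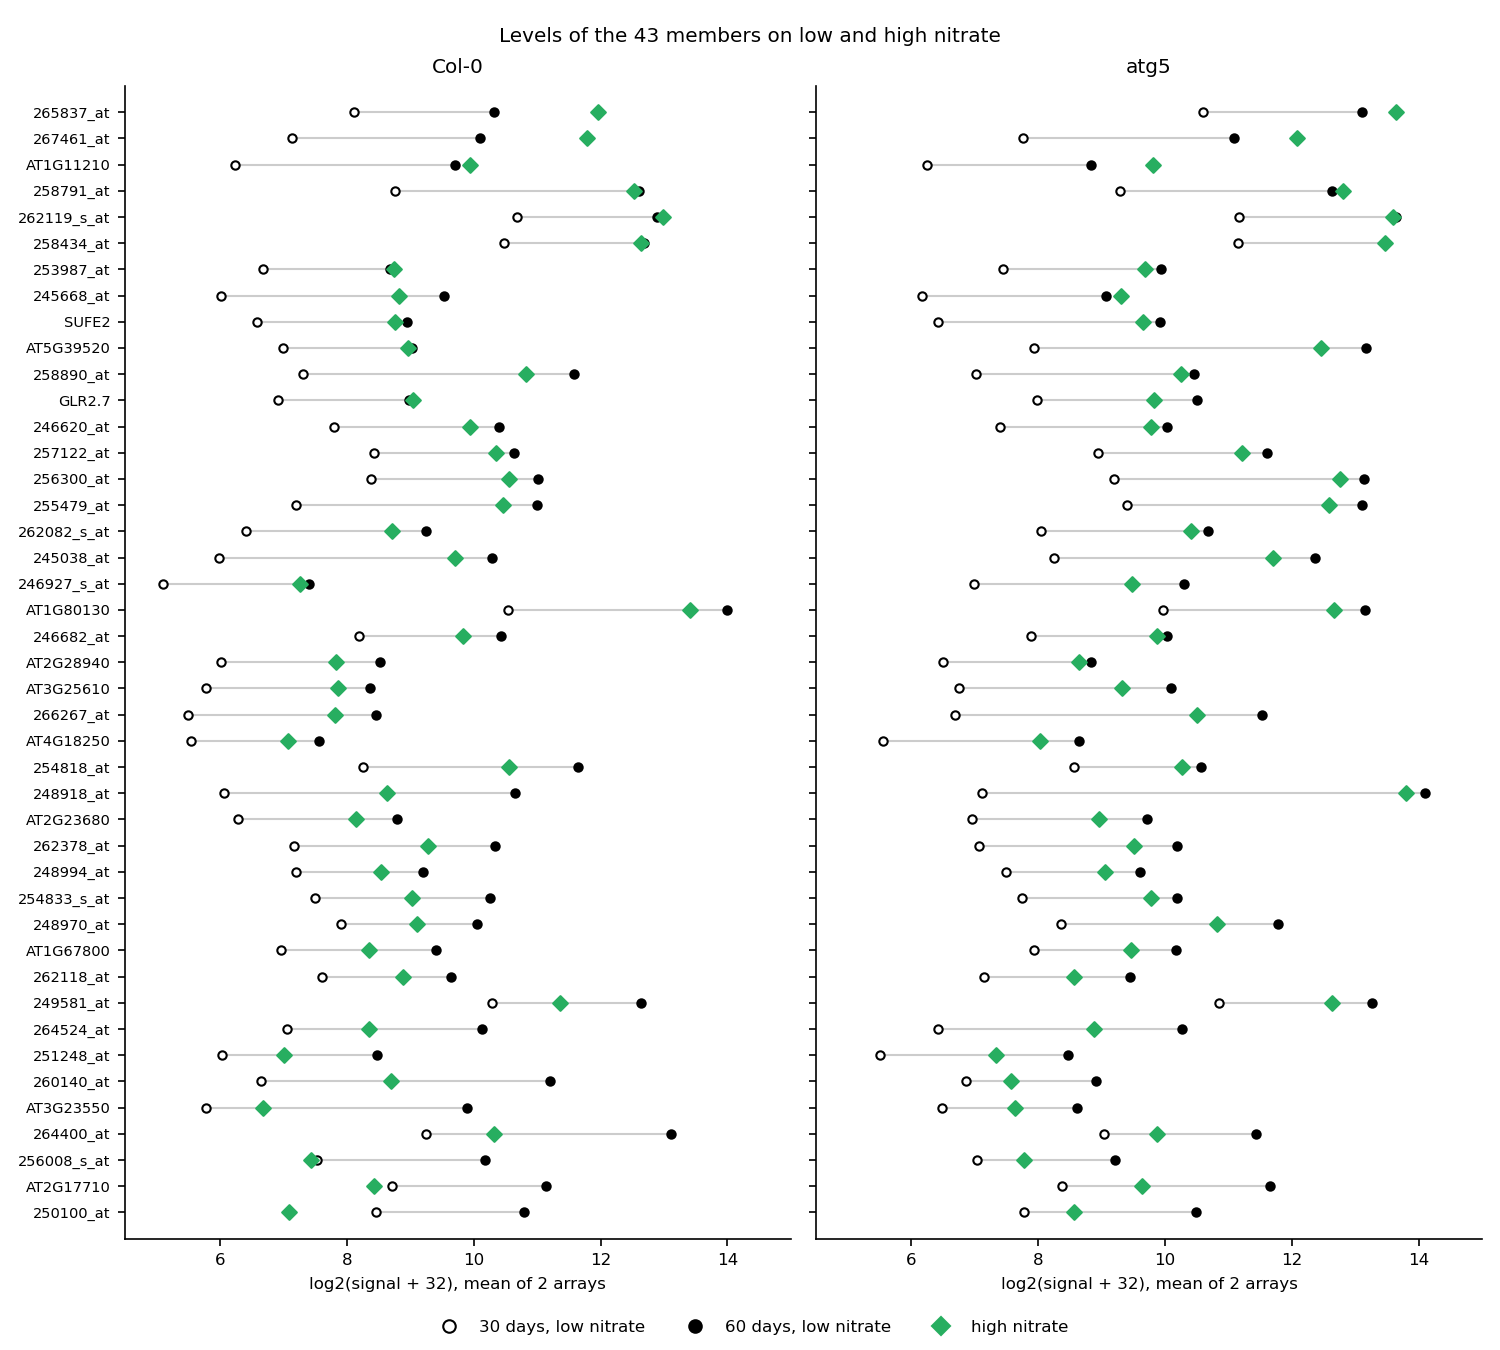
Group means of each member as log2(signal + 32), n = 2 arrays per mean, for Col-0 (left) and atg5 (right): open circles are 30 days and filled circles 60 days on low nitrate, and diamonds are high nitrate. Most members lie nearer to the 60-day mean, 34 of 43 in Col-0 and 38 of 43 in atg5.

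Once the mean of each condition was removed, some members still followed each other over the 16 arrays. These share cultures and array quality, and the genotype differences remain in the values, so the r with all 8 group means removed is given second. Each partner named here has the highest of a gene's r values with all other members. That choice favours a high r, so nothing is read from its size. The lowest r of a named gene was -0.79 with the condition means removed, for AT1G80130 with 267461_at. The closest partner of AT1G67800 was 262082_s_at at r = 0.96 and 0.92, and of GLR2.7 the same probe set at 0.90 and 0.85. AT5G39520 and AT3G25610 were both closest to 248970_at, at 0.93 and 0.67 for the one and 0.92 and 0.85 for the other, and AT2G23680 to 246927_s_at at 0.92 and 0.84. AT3G23550 had no close partner, its highest value being 0.46 and 0.47.

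Genes of 14 lists were set beside the members on low nitrate. No list gene is a member, and 46 list genes have a probe set that names them. Among these, PDF1.2 and PDF1.2b of the jasmonate and ethylene defence list met the limit of 2 in all 3 genotypes. They are not members only because their loci were set aside. Counts are of limma's calls for 60 against 30 days, where 3.28% of all probe sets passed as higher and 3.03% as lower in Col-0, 7.9% and 6.77% in atg5, and 7.09% and 4.5% in atg9. The Col-0 calls hang on single arrays: the 746 higher and 689 lower became 83 and 72 without the culture 1 array at 30 days, 1786 and 5998 without that of culture 2, 18 and 9 without the culture 1 array at 60 days, and 172 and 146 without that of culture 2. Of 27 listed autophagy symbols the 9 with a probe set are all members of the ATG8 family. Of these 9, 2 rose in Col-0, 9 in atg5 and 8 in atg9, and 0 fell, with median changes of 0.43, 1.74 and 1.47. In Col-0 the count was 0 without the culture 1 array at 30 days or either array at 60 days, and 4 without the culture 2 array at 30 days. In atg5 it was 5 without the culture 2 array at 30 days. In atg9 it was 2 or 4 when any single atg9 array on low nitrate was left out. ATG8D, a ubiquitin-like protein of the autophagosome membrane, rose by 1.19 in Col-0, 1.74 in atg5 and 1.58 in atg9. ATG8H, of the same family, rose by 3.46 in atg5 and 1.75 in atg9, and its value in Col-0 was -0.39 without passing. ATG5 and ATG9 have no probe set named for them here.

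Of 6 senescence genes 1 rose in Col-0, 2 in atg5 and 3 in atg9, with medians of 0.27, 1.47 and 1.38. Leaving out single arrays of atg9 took its count to between 0 and 2. PPDK, pyruvate orthophosphate dikinase, rose in all 3 genotypes, by 1.33, 2.12 and 2.01. Its Col-0 call had an adjusted p of 0.0475 in limma and held in 8 of 23 other settings. SAG29 had -0.68, -0.72 and -0.63 without passing, and NOL had 0.10 in Col-0 and -0.29 in atg5 without passing. WRKY6, a transcription factor of senescing leaves, rose by 1.85 in atg5 and 1.5 in atg9 and had 0.99 in Col-0 without passing. The nitrate transporter gene NRT2.5 rose by 3.16 in atg5 and 3.59 in atg9, and OSM34, an osmotin-like protein, by 3.79 and 3.86. Both missed the threshold in Col-0, at 1.38 and 1.36. THI2.2, a thionin, fell in all 3 genotypes, with -3.28, -3.06 and -3.34. Whether the genotypes differ in these changes was not tested here.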

How the data were processed

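RNA of pooled rosettes was hybridised to 16 single-colour Affymetrix arrays. The authors made the deposited intensity values with MAS5 (per the submitters' processing notes, version not given in the sources used here), and the mean of every array after trimming 2% at each end was about 500. No detection calls were used, and the number of arrays limits the precision. To each deposited intensity 32 was added and log2 taken.

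Groups are genotype, nitrate and age as labelled. limma 3.58.1 in R 4.3.3 fitted 8 group means with the culture as a block to all 22746 probe sets that are not controls, unfiltered, with an eBayes trend (7 residual and 4.58 prior degrees of freedom). Tests are two-sided contrasts, each adjusted by Benjamini-Hochberg, with a threshold of 0.05. The p-values rest on the spread between the 2 arrays of a group that the culture block leaves. That spread is pooled over the 8 groups and moderated across probe sets. The replicate number marks the culture. Deviations of same-culture arrays correlated at -0.141 to 0.552 over 28 pairs of groups, with 9 over 0.1. The code was tested on simulated data.

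A named gene had to be the single gene of a member's probe set in the annotation, which gives 1 gene to 13513 probe sets, several to 503 and does not list 8730. All 12 are named. The members, and 14 gene lists with 312 symbols, were chosen with earlier results of these data known. Promoter motifs were not analysed here. Alternatives were other constants, a filter, quantile normalization, no trend, no block and leaving out arrays.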

Additional observations from a re-analysis of the deposited data

Results flagged for a closer look

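The 12 named members were scanned for differences from Col-0 of opposite direction in 2 conditions, in both cultures each time. For atg5 the conditions were both ages on low nitrate and high nitrate, and for atg9 both ages on low nitrate. Those found are given below. The share of all probe sets that would meet this was not computed, so nothing is read from how many were found. All values are log2(signal + 32) differences of 2 arrays against 2, and the low-nitrate arrays are those that chose the members.

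AT2G17710 in atg9 was -0.90 from Col-0 at 30 days and 0.67 at 60 days. SUFE2 in atg9 was -0.67 at 30 days and 0.66 at 60 days. SUFE2 in atg5 was -0.15 ± 0.45 at 30 days, 0.98 at 60 days and 0.89 on high nitrate. The 30-day arrays of SUFE2 overlap with Col-0 in either mutant. AT5G39520 in atg9 was -0.83 at 30 days and 2.94 at 60 days. AT3G23550 in atg5 was 0.70 at 30 days, -1.28 at 60 days and 0.95 on high nitrate. None of the single 30-day differences passed in limma, the lowest adjusted p being 0.487 for AT2G17710. Whether the 30-day difference of a gene differs from its later ones was not tested. The 30-day values include the culture 1 array of Col-0 that stands apart. For AT3G23550 the high-nitrate and 60-day differences lay 2.23 ± 0.56 apart, with an adjusted p of 1.0 in limma.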

How the results depend on the processing

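Each comparison was recomputed under 23 other settings and the rule under 16. No member difference past the threshold changed sign. Among differences that had not passed, sign changes were looked for only in the 12 named members. This covered atg5 against Col-0 on high nitrate and both mutants against Col-0 at 60 days. Those that changed sign did so when 1 array was left out. AT1G11210 on high nitrate ran from -0.58 to 0.31. At 60 days AT2G28940 ran from -0.063 to 0.71 in atg5 and from -0.048 to 0.75 in atg9. In atg9 at 60 days AT1G80130 ran from -0.51 to 0.29 and AT3G23550 from -0.27 to 0.68. For atg5 on high nitrate, the probe sets called over all went from 66 to 118 without the 2 arrays that stand apart, with 4 members, and to 29 with signals under 1 set to 1 in place of the added constant. At 60 days atg5 had 432 without those 2 arrays and 0 members, and atg9 had 28 with the floor of 1 and 24 without the 2 arrays, against 54. atg9 against atg5 at 60 days gave 3 after quantile normalization and 2 without the trend. At 30 days atg9 against Col-0 gave 1 with the floor, with 16 added or with a filter on dim probe sets, and atg9 against atg5 gave 1 with the floor. With 16 added the rule found 66 members, with 64 it found 30, all of them among the 43, and after quantile normalization 57, of which 40 were among them. The causes of these shifts were not tested.

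Leaving out each array in turn gave, over all probe sets and then over members, 0 to 107 and 0 to 3 for atg5 on high nitrate, 184 to 1379 and 0 to 7 for atg5 at 60 days, 0 to 66 and 0 to 1 for atg9 at 60 days, 1 to 42 and 0 to 0 for atg9 against atg5 at 60 days, 0 to 5371 and 0 to 6 for atg5 at 30 days, 0 to 5612 and 0 to 4 for atg9 at 30 days, and 0 to 4 and 0 to 0 for atg9 against atg5 at 30 days. The high counts at 30 days came without the Col-0 array of culture 2. The rule then found 38 to 59 probe sets, with 30 to 43 of the members kept, and 18 members stayed without any single low-nitrate array, among them AT1G80130, AT3G23550, AT3G25610, SUFE2, AT2G28940 and AT2G23680. Without the replicate block, 77 probe sets and 0 members were called for atg5 on high nitrate, 827 and 6 for atg5 at 60 days, and 60 and 0 for atg9 at 60 days. AT5G39520 passed at 60 days in atg5 in 19 of 23 settings, with adjusted p-values in limma from 0.00174 to 0.111.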
